A study of Homo sapiens with 3 samples.

Results

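Antisense long noncoding RNAs are transcripts read from the opposite strand of a named gene, and 234 of them were described here in QBC-939 cells. They were the rows of the deposited gene table whose name ends in -AS1 and whose counts summed to 300 or more over the 3 libraries, with 1 such row, EPB41L4A-AS1, left out by the rule. The table has 30923 rows, of which 828 are named -AS1 and 593 of those were below the minimum. QBC-939 is a human cholangiocarcinoma cell line, a cancer of the bile duct epithelium, labelled WT in its genotype in every library. One library was made from cells overexpressing miR-182-5p, another from cells overexpressing miR-183-5p, and the last from cells overexpressing NC, the control of the study. The titles of both microRNA samples end in "mim", the NC title does not, and no label states the dose or the time after delivery. Each group is 1 library, so nothing checks a difference against replicates, no p-value is given, and every difference is one between single libraries. Members were thus chosen by their name and their summed count, a level rather than a difference, and the rows nearest to it were TMEM92-AS1 with 300 counts, KIF9-AS1 with 304 and MBNL1-AS1 with 308 inside, and ST7-AS1 with 299, RARA-AS1 with 298 and CA3-AS1 with 297 outside.

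An antisense RNA can start near the promoter of its partner and run away from it, overlap the partner head to head or tail to tail, or lie wholly within it. Some act on the partner where they are made, by altering its chromatin, transcription or splicing, others work elsewhere as scaffolds or as binding sites for microRNAs, and many are made at low levels and quickly destroyed in the nucleus by the RNA exosome. MicroRNAs guide Argonaute proteins to cytoplasmic RNAs by pairing through the seed, the bases near their 5′ end, and noncoding transcripts can hold such sites too.

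The mature sequences are shown because the libraries differ by these microRNAs and because their seeds were searched for in the antisense RNAs further on. The seed, bases 2 to 8, is in capitals. Both come from chromosome 7 on the minus strand in GRCh38.p14, per RefSeq, miR-182-5p from chr7:129770447-129770470 and miR-183-5p from chr7:129774967-129774988.
hsa-miR-182-5p: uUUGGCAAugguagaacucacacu
hsa-miR-183-5p: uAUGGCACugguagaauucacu
Of the 7 seed bases, 5 are identical between the microRNAs, but the sites that pair with the full seeds differ, TTGCCAA for miR-182-5p and GTGCCAT for miR-183-5p.

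The antisense RNAs were a small share of the counts in each library. They held 0.238% of the counts with miR-182-5p, 0.203% with miR-183-5p and 0.184% in NC, whose totals were 61709874, 67427313 and 64516706 counts in that order. Their median level per length was 1.20 FPKM with miR-182-5p, 1.02 FPKM with miR-183-5p and 0.968 FPKM in NC. A level of 1 FPKM or more was seen for 135 of the 234 with miR-182-5p, 121 with miR-183-5p and 112 in NC. Most antisense RNAs were thus rare transcripts in these cells, and all but TSPOAP1-AS1 had at least 50 counts in every library.

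The most abundant antisense RNA per length in NC was FGD5-AS1, at 13.3 FPKM with miR-182-5p, 11.7 FPKM with miR-183-5p and 12.7 FPKM in NC. ELFN1-AS1 followed with 9.33 FPKM with miR-182-5p, 12.2 FPKM with miR-183-5p and 10.2 FPKM in NC. THAP9-AS1 had 9.25 FPKM with miR-182-5p, 9.66 FPKM with miR-183-5p and 8.51 FPKM in NC. ELFN1-AS1 was lowest with miR-182-5p and highest with miR-183-5p, at a CPM ratio between them of 0.766, while FGD5-AS1 and THAP9-AS1 lay closer together. MUC12-AS1, opposite a mucin gene, had 9.62 FPKM with miR-182-5p, 7.08 FPKM with miR-183-5p and 7.73 FPKM in NC. MRPL20-AS1, opposite a mitochondrial ribosomal protein gene, had 6.02, 5.52 and 6.26 FPKM in the same order. TSPOAP1-AS1, in the same top 6 of the NC library with 7.07 FPKM there and 7.29 FPKM with miR-183-5p, had 0.150 FPKM with miR-182-5p.

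Set against NC, the antisense RNAs were mostly higher with miR-182-5p. The median log2 ratio of CPM (counts scaled to the library total) was 0.36 over the 234, beside 0.0011 over all 13936 rows with at least 300 counts and 0.022 over the 11802 rows in the antisense RNAs' range of counts. The ratio was above 1 for 190 antisense RNAs and below 1 for 44. The 95% counting interval of the ratio (exact, Clopper-Pearson, counting error only) lay above 1 for 144 of the 234 (61.5%, beside 37.4% of all rows) and below 1 for 22 (9.40%, beside 37.1%). The step was not particular to antisense RNAs: the 908 other rows in their range of counts that are typed as lncRNA alone had a median log2 ratio of 0.44, and the 9775 protein-coding rows in that range had -0.014. No source used here says whether the counting kept strands apart, so reads of an antisense RNA and of a gene opposite it cannot be told apart, and 209 of the 234 overlap a row on the other strand. In such bulk libraries, fewer cells that make an RNA and less of it per cell cannot be told apart either.

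The step was smaller with miR-183-5p. The median log2 CPM ratio to NC was 0.13 over the antisense RNAs, beside -0.027 over all rows and 0.18 over the other lncRNA rows. The ratio was above 1 for 148 and below 1 for 86, and the counting interval lay above 1 for 90 (38.5%, beside 25.7% of all rows) and below 1 for 37 (15.8%, beside 35.8%). Between the microRNA libraries, the median log2 ratio of miR-182-5p over miR-183-5p was 0.25, beside 0.026 over all rows and 0.25 over the other lncRNA rows. That interval lay above 1 for 126 antisense RNAs (53.8%, beside 36.6% of all rows) and below 1 for 27 (11.5%, beside 29.0%). Both comparisons with NC share the NC library, so they are not independent of each other.

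**Figure D1:**
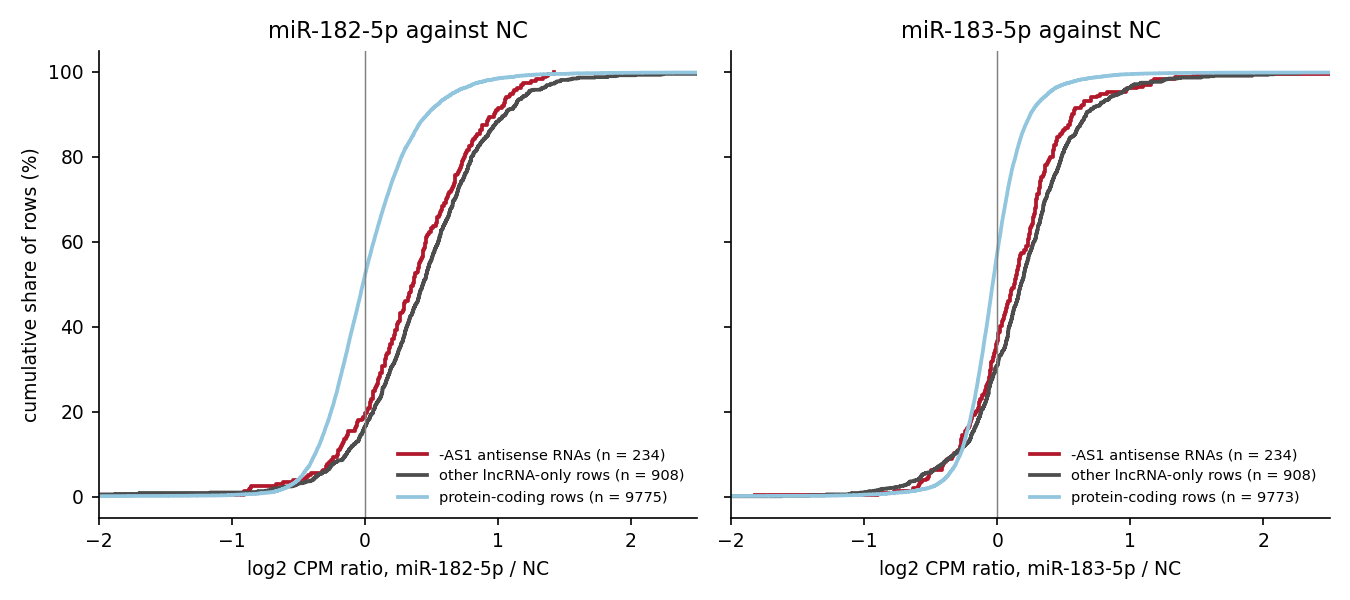
Cumulative share of rows (y axis, percent) with a log2 CPM ratio to NC up to the value on the x axis, for the antisense RNAs, the other lncRNA-only rows and the protein-coding rows in the same range of counts. The red curve of the antisense RNAs runs beside that of the other lncRNA rows and to the right of the protein-coding rows over most of its course, with medians of 0.36 for miR-182-5p and 0.13 for miR-183-5p; values beyond the axis, such as TSPOAP1-AS1 for miR-182-5p, are outside the plot.

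At least 2-fold higher with miR-182-5p than in NC were 21 of the 234 antisense RNAs (8.97%), beside 2.47% of all rows, 2.91% of rows in their range of counts and 11.7% of the other lncRNA rows. The highest ratio was that of RNF213-AS1, opposite the gene of a giant ubiquitin ligase, with 7.78 CPM with miR-182-5p, 5.68 CPM with miR-183-5p and 2.90 CPM in NC. Its ratio was 2.68 (2.26 to 3.19) for miR-182-5p over NC and 1.96 (1.64 to 2.35) for miR-183-5p over NC, so the NC library was the lowest of the 3. VIM-AS1, head to head with the vimentin gene, had 2.90 CPM with miR-182-5p, 3.34 CPM with miR-183-5p and 1.12 CPM in NC. Both microRNA libraries thus stood above NC for VIM-AS1, at 2.60 (1.97 to 3.47) and 2.99 (2.28 to 3.95), while vimentin itself had 3.42, 3.71 and 3.70 CPM. FEZF1-AS1, studied as a tumour-associated transcript, had 3.23 CPM with miR-182-5p, 1.28 CPM with miR-183-5p and 1.26 CPM in NC. Here the miR-182-5p library alone was high, at 2.57 (1.97 to 3.37) against 1.02 (0.741 to 1.39) for miR-183-5p over NC.

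The best counted antisense RNAs past 2-fold were SH3BP5-AS1 and STARD4-AS1. SH3BP5-AS1 had 30.9 CPM with miR-182-5p, 23.5 CPM with miR-183-5p and 13.7 CPM in NC, ratios to NC of 2.25 (2.08 to 2.44) and 1.71 (1.58 to 1.86). STARD4-AS1, opposite the gene of a cholesterol carrier, had 21.3 CPM with miR-182-5p, 21.4 CPM with miR-183-5p and 9.59 CPM in NC. The microRNA libraries did not differ in STARD4-AS1 beyond counting error, with a ratio between them of 0.996 (0.924 to 1.07), and both were above NC at 2.22 (2.01 to 2.44) and 2.23 (2.02 to 2.45).

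Other antisense RNAs past 2-fold with miR-182-5p were opposite genes of varied function. LMNTD2-AS1 had 7.44 CPM with miR-182-5p, 3.72 CPM with miR-183-5p and 3.04 CPM in NC. MMP25-AS1, opposite a membrane-bound metalloprotease gene, had 6.34, 4.97 and 2.81 CPM in that order. ID2-AS1, by the gene of an inhibitor of helix-loop-helix transcription factors, had 4.65, 3.19 and 1.95 CPM. IRF1-AS1, by an interferon-response transcription factor gene, had 6.85, 4.72 and 3.01 CPM. All 4 had their lowest level in NC and their highest with miR-182-5p.

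RNF32-AS1 had 7.75 CPM with miR-182-5p, 5.93 CPM with miR-183-5p and 3.64 CPM in NC. RNF139-AS1, by an endoplasmic reticulum ubiquitin ligase gene, had 13.4, 8.74 and 6.42 CPM in that order. KTN1-AS1 and KLF3-AS1 differed from these in that the miR-183-5p library was as high as the miR-182-5p library. KTN1-AS1 had 2.38 CPM with miR-182-5p, 2.45 CPM with miR-183-5p and 1.10 CPM in NC. KLF3-AS1, opposite a Krüppel-like repressor gene, had 1.88, 2.002 and 0.883 CPM in that order, on 116, 135 and 57 counts. The 6 nearest to 2-fold among them, ZNF529-AS1, FAM13A-AS1, TNRC6C-AS1, CD44-AS1, CCDC183-AS1 and PAXBP1-AS1, had ratios of 2.08, 2.08, 2.07, 2.07, 2.05 and 2.002 for miR-182-5p over NC. Among all 21, the miR-183-5p library was below NC in ZNF529-AS1 and TNRC6C-AS1, at ratios of 0.879 (0.756 to 1.02) and 0.699 (0.542 to 0.898). At a threshold of 1.5-fold, 74 antisense RNAs were higher with miR-182-5p than in NC (31.6%, beside 9.40% of all rows) and 8 lower (3.42%, beside 2.53%). Of the other lncRNA rows, 36.9% were higher and 2.42% lower at that threshold.

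Limits apply to this count. Of the 21, 7 would have been below the minimum of 300 counts had all 3 libraries been at the NC level, so they became members through the libraries where they were high. VIM-AS1, FEZF1-AS1, KTN1-AS1, KLF3-AS1, FAM13A-AS1 and CD44-AS1 are among these 7, so their ratios are a description only. On the scale of log2 (FPKM + 1) none of the 234 passed 2-fold upward. With a minimum of 1000 counts 8 of 106 did, and of the 35 that share no exonic bases with another gene in GENCODE 29, 1 did, RNF139-AS1.

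**Figure D2:**
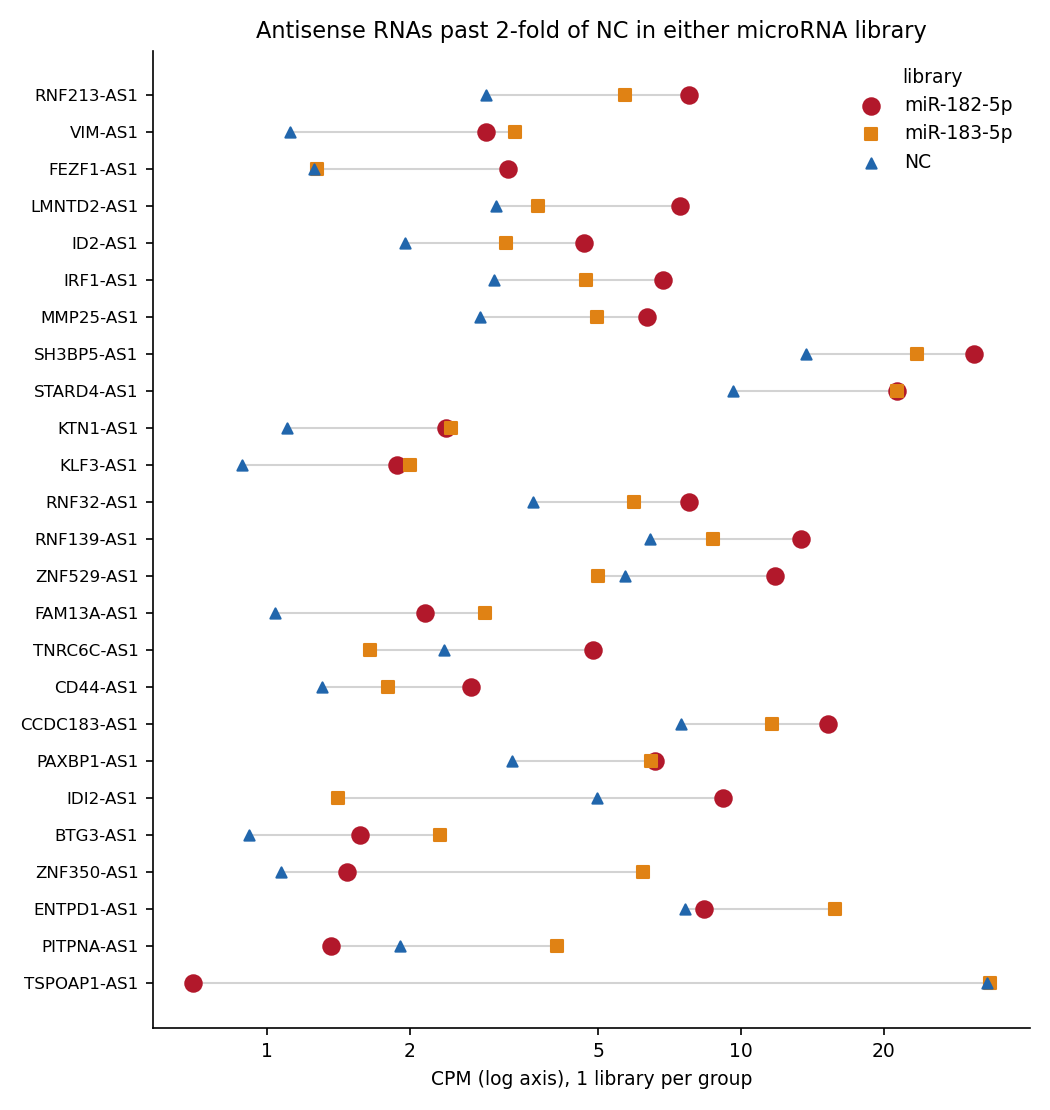
CPM on a log axis with miR-182-5p (circles), with miR-183-5p (squares) and in NC (triangles) for 25 antisense RNAs with a ratio to NC past 2-fold in either microRNA library; the grey line joins the lowest and the highest. NC is the lowest library for most rows, while TSPOAP1-AS1 at the bottom has 0.697 CPM with miR-182-5p against 33.5 and 32.9 CPM.

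TSPOAP1-AS1 (ENSG00000265148; 17:58324472-58353719, plus strand) was the 1 antisense RNA lower by 2-fold or more with miR-182-5p (0.427%, beside 0.488% of all rows and 0.559% of rows in the same range of counts). It had 43 counts with miR-182-5p, 2257 with miR-183-5p and 2125 in NC, which is 0.697, 33.5 and 32.9 CPM. The miR-182-5p library therefore stood alone, at a ratio of 0.0212 (0.0153 to 0.0286) to NC, while miR-183-5p over NC was 1.02 (0.957 to 1.08). The next lowest antisense RNA, PXN-AS1, was at 0.533 (0.443 to 0.640) with 2.92 CPM with miR-182-5p, 3.63 CPM with miR-183-5p and 5.47 CPM in NC. SUCLG2-AS1 was at 0.534 (0.423 to 0.673) and LIMD1-AS1 at 0.547 (0.463 to 0.645).

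The span of TSPOAP1-AS1 overlaps 6 rows on the other strand, and their counts were looked up after its own value was known. SUPT4H1, the gene of a transcription elongation factor subunit, lies wholly inside the span and shares 577 exonic bases with it in GENCODE 29. SUPT4H1 had 61.9 CPM with miR-182-5p, 41.7 CPM with miR-183-5p and 41.5 CPM in NC. It was thus high in the library where TSPOAP1-AS1 was low, by 20.4 CPM over NC, beside 32.2 CPM by which TSPOAP1-AS1 was below NC. The sum of TSPOAP1-AS1 and SUPT4H1 was 62.6 CPM with miR-182-5p, 75.1 CPM with miR-183-5p and 74.4 CPM in NC, a ratio of 0.841 for miR-182-5p over NC. RNF43, a ubiquitin ligase gene that restrains Wnt receptors, had 521, 456 and 426 CPM in the same order. By the deposited spans RNF43 overlaps TSPOAP1-AS1 only from 58353676 to the end of TSPOAP1-AS1. That stretch is much shorter than the 1521 exonic bases that RNF43 and TSPOAP1-AS1 share in GENCODE 29. TSPOAP1, the gene of a benzodiazepine receptor binding protein and the partner by name, had 3.76, 2.30 and 2.15 CPM. SUPT4H1, RNF43 and TSPOAP1 were thus highest with miR-182-5p. AC004687 (ENSG00000285897), which shares 335 exonic bases, was highest with miR-183-5p instead, with 3.73, 8.74 and 2.87 CPM. The other 2 overlapping rows had at most 11 counts in a library. The part of these genes in the low TSPOAP1-AS1 count was not tested.

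**Figure D3:**
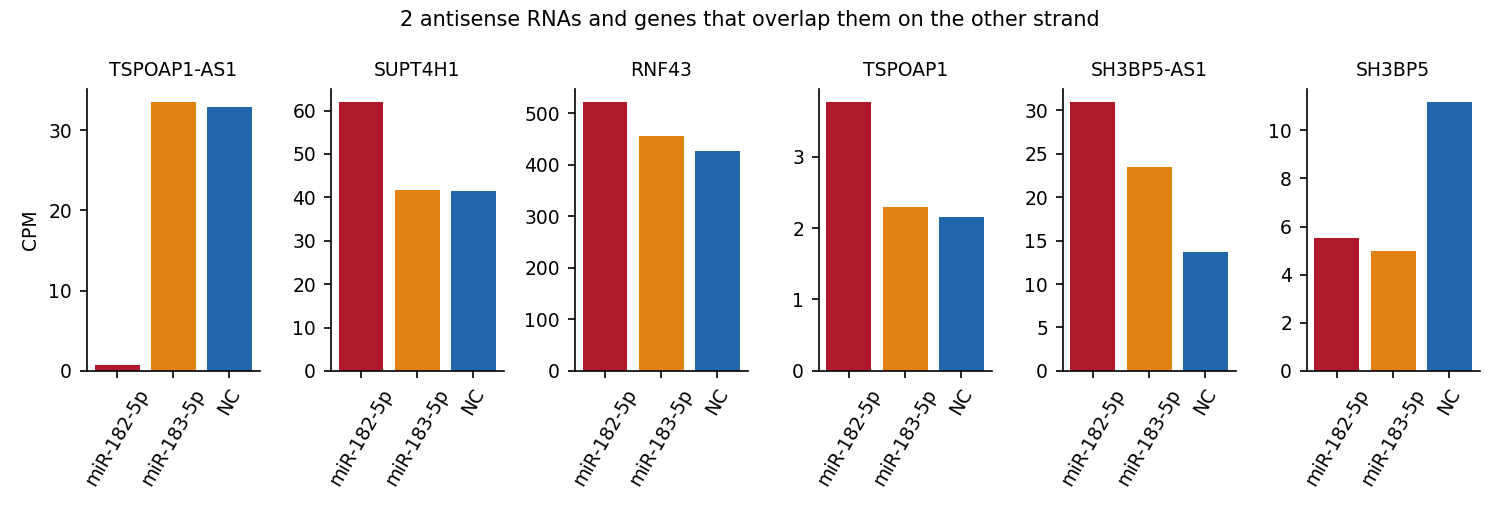
CPM (bars, y axis from 0, own scale in each panel) by library, left to right miR-182-5p, miR-183-5p, NC, for TSPOAP1-AS1 and 3 genes on the other strand of its locus, and for SH3BP5-AS1 and SH3BP5; 1 library per bar, so no error bars. TSPOAP1-AS1 is near 0 with miR-182-5p alone, where SUPT4H1 is highest at 61.9 CPM; SH3BP5 is highest in NC at 11.2 CPM, where SH3BP5-AS1 is lowest at 13.7 CPM.

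In the miR-183-5p library 9 of the 234 antisense RNAs were at least 2-fold higher than in NC (3.85%, beside 0.940% of all rows, 1.10% of rows in the same range of counts and 3.63% of the other lncRNA rows). ZNF350-AS1, tail to tail with a zinc finger repressor gene, had the highest ratio. It had 91 counts with miR-182-5p, 418 with miR-183-5p and 69 in NC, or 1.47, 6.20 and 1.07 CPM. The miR-183-5p library alone was high, at 5.80 (4.48 to 7.59) over NC, against 1.38 (0.997 to 1.91) for miR-182-5p over NC. In GENCODE 29 ZNF350-AS1 shares no exonic bases with another gene, and ZNF350 itself had 58.0 CPM with miR-182-5p, 53.0 CPM with miR-183-5p and 52.3 CPM in NC.

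FAM13A-AS1 had 2.16 CPM with miR-182-5p, 2.88 CPM with miR-183-5p and 1.04 CPM in NC, and was 2.77 (2.09 to 3.71) for miR-183-5p over NC. BTG3-AS1, by an antiproliferative gene, had 1.57, 2.31 and 0.915 CPM and was at 2.53 (1.86 to 3.47). Both microRNA libraries were above NC in these. ENTPD1-AS1, opposite the gene of the ectonucleotidase CD39, had 8.36 CPM with miR-182-5p, 15.8 CPM with miR-183-5p and 7.63 CPM in NC. Its ratio was 2.07 (1.86 to 2.31) for miR-183-5p over NC and 1.10 (0.967 to 1.24) for miR-182-5p over NC, so that the miR-183-5p library stood apart. The other members of the 9, VIM-AS1, KLF3-AS1, STARD4-AS1, KTN1-AS1 and PITPNA-AS1, were at 2.99, 2.27, 2.23, 2.22 and 2.14. At 1.5-fold, 20 were higher with miR-183-5p than in NC (8.55%, beside 3.39% of all rows and 14.5% of the other lncRNA rows). Lower were 7 (2.99%, beside 1.93% and 4.41%). Of the 9, 6 would have been below the minimum of 300 counts at the NC level in all 3 libraries, all but STARD4-AS1, ENTPD1-AS1 and PITPNA-AS1, so the count of 9 is a description only. With a minimum of 1000 counts 2 were past 2-fold, and on the log2 (FPKM + 1) scale none.

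IDI2-AS1, which overlaps the isoprenoid enzyme gene IDI1 on the other strand, was the 1 antisense RNA lower by 2-fold or more with miR-183-5p (0.427%, beside 0.553% of all rows and 0.644% of rows in that range). It had 566 counts with miR-182-5p, 95 with miR-183-5p and 321 in NC, or 9.17, 1.41 and 4.98 CPM. The microRNA libraries lay on opposite sides of NC, at 1.84 (1.60 to 2.12) and 0.283 (0.223 to 0.357). IDI1 shares 643 exonic bases with it and had 110, 106 and 110 CPM in the same order, so the overlapping gene did not move with it.

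Directly between the microRNA libraries, 9 antisense RNAs were at least 2-fold higher with miR-182-5p (3.85%, beside 1.25% of all rows and 1.47% of rows in the same range of counts). At least 2-fold lower were 3 (1.28%, beside 0.474% and 0.551%). The other lncRNA rows had similar shares, 4.19% higher and 1.10% lower. IDI2-AS1 had the highest ratio of miR-182-5p over miR-183-5p, 6.51 (5.23 to 8.18). TNRC6C-AS1, opposite a gene of the Argonaute-binding GW182 family, had 4.88 CPM with miR-182-5p, 1.65 CPM with miR-183-5p and 2.36 CPM in NC, a ratio of 2.96 (2.38 to 3.72). CALML3-AS1 had 2.98, 1.13 and 1.75 CPM and a ratio of 2.65 (2.01 to 3.50). In all 3 the miR-183-5p library was below NC and the miR-182-5p library above it.

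FEZF1-AS1, ZNF529-AS1, PITRM1-AS1, NDUFB2-AS1 and RASGRF2-AS1 had ratios of miR-182-5p over miR-183-5p of 2.53, 2.36, 2.21, 2.11 and 2.001. On the lower side, TSPOAP1-AS1 was at 0.0208 (0.0150 to 0.0281) and ZNF350-AS1 at 0.238 (0.187 to 0.299). PITPNA-AS1, by a phosphatidylinositol transfer protein gene, had 1.36 CPM with miR-182-5p, 4.08 CPM with miR-183-5p and 1.91 CPM in NC, a ratio of 0.334 (0.258 to 0.428). For PITPNA-AS1 the libraries lay around NC the other way about, with miR-182-5p below and miR-183-5p above. Of the 9 higher, 5 would have been below the minimum at the miR-183-5p level in all 3 libraries, among them IDI2-AS1, CALML3-AS1, FEZF1-AS1 and NDUFB2-AS1. TSPOAP1-AS1, ZNF350-AS1 and PITPNA-AS1, the 3 lower, would likewise have been below it at the miR-182-5p level. Both counts are thus a description only. At 1.5-fold, 33 were higher with miR-182-5p than with miR-183-5p (14.1%, beside 5.00% of all rows) and 6 lower (2.56%, beside 1.36%). Of the other lncRNA rows, 19.2% were higher and 2.86% lower at 1.5-fold.

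Some antisense RNAs held nearly the same level in all 3 libraries. Among those with at least 1000 counts, NUTM2A-AS1 was the closest, with 42.3 CPM with miR-182-5p, 41.6 CPM with miR-183-5p and 41.8 CPM in NC. MYLK-AS1 had 6.32, 6.15 and 5.95 CPM in that order, NUTM2B-AS1 had 29.98, 28.0 and 29.5 CPM, and NNT-AS1 had 25.5, 25.1 and 23.7 CPM. NUTM2A-AS1 and NUTM2B-AS1 belong to near-identical loci on chromosome 10, so reads may be shared between them and their values are uncertain.

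Of a list of 20 antisense RNAs with published roles, 14 had enough counts to be members. The counting interval of miR-182-5p over NC lay above 1 for 8 of these (beside 37.4% of all rows) and below 1 for 0 (beside 37.1%), and that of miR-183-5p over NC lay above 1 for 3 (beside 25.7%) and below 1 for 2 (beside 35.8%). Their median log2 ratios were 0.20 and 0.035, beside 0.36 and 0.13 over all 234. GABPB1-AS1, the antisense RNA with the most counts, had 128 CPM with miR-182-5p, 90.1 CPM with miR-183-5p and 71.9 CPM in NC, ratios to NC of 1.78 (1.71 to 1.84) and 1.25 (1.21 to 1.30). OIP5-AS1, known as Cyrano and for directing the decay of miR-7, had 61.4, 47.3 and 47.5 CPM, so that the miR-182-5p library alone was high. PSMA3-AS1 had 54.6, 42.3 and 40.5 CPM, also highest with miR-182-5p.

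CDKN2B-AS1, or ANRIL, which binds Polycomb proteins at the INK4 locus, had 7.97 CPM with miR-182-5p, 7.25 CPM with miR-183-5p and 6.73 CPM in NC. DDX11-AS1, or CONCR, which binds the helicase DDX11 in sister chromatid cohesion, had 6.11, 4.67 and 5.64 CPM in that order. ZEB1-AS1, head to head with a repressor gene of the epithelial state, had 6.87, 5.78 and 6.17 CPM. None of these 3 passed 2-fold in either direction. The other listed members, FOXD2-AS1, FGD5-AS1, NNT-AS1, MCM3AP-AS1, MAPKAPK5-AS1, TMPO-AS1, THUMPD3-AS1 and PRKCQ-AS1, had ratios of miR-182-5p over NC of 1.20, 1.03, 1.08, 1.32, 0.964, 1.11, 1.39 and 0.8995.

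Each antisense RNA was then set beside the gene named before -AS1. A row of that name was found for 230 of the 234, none for 4, among them FGD5, RPARP and TMEM202, and 21 of the partners had fewer than 300 counts, which left 209 pairs. The partner had the higher level per length in NC in 182 of the 209 pairs, and the median ratio of partner to antisense RNA over all 209 was 6.79 in FPKM. Over these pairs the median log2 CPM ratio of miR-182-5p over NC was 0.35 for the antisense RNAs and -0.0085 for the partners. The antisense RNA had the higher ratio of the pair in 156 of 209, and the median difference within a pair was 0.35 on the log2 scale. For miR-183-5p over NC the medians were 0.14 for the antisense RNAs and -0.022 for the partners, with the antisense RNA higher in 137 pairs and a median difference of 0.14.

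Antisense RNA and partner lay on the same side of 1 in 113 of the 209 pairs for miR-182-5p over NC (54.1%) and in 103 for miR-183-5p over NC (49.3%). For miR-182-5p the commonest pattern beside both being higher, in 87 pairs, was a higher antisense RNA with a lower partner, in 81. Both were lower in 26 pairs, and in 15 the antisense RNA was lower and the partner higher. Across the 209 pairs of each comparison, which share their libraries and often reads, Pearson's r between the log2 ratios was 0.019 for miR-182-5p over NC and -0.0096 for miR-183-5p over NC, and Spearman's rho was 0.15 and 0.023. Between the microRNA libraries the pairs lay on the same side in 100 of 209 (47.8%). The share of pairs on the same side depends on scaling, and was 46.9% for miR-182-5p over NC with median-of-ratios size factors.

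Partners passed 2-fold about as often as rows at large with miR-182-5p. Past 2-fold against NC were 4 partners upward (1.91%, beside 2.47% of all rows) and 1 downward (0.478%, beside 0.488%) with miR-182-5p, and 0 upward (beside 0.940%) and 1 downward (0.478%, beside 0.553%) with miR-183-5p. LMNTD2 had 7.97 CPM with miR-182-5p, 4.85 CPM with miR-183-5p and 3.83 CPM in NC, a ratio of 2.08 to NC for miR-182-5p beside 2.45 for LMNTD2-AS1. MMP25 had 2.69, 1.498 and 1.15 CPM in that order, at 2.35 beside 2.26 for MMP25-AS1. In these 2 pairs the antisense RNA and its partner were both past 2-fold with miR-182-5p. LMNTD2 shares 1097 exonic bases with LMNTD2-AS1, and MMP25 shares 1454 with MMP25-AS1. With the strand handling unknown, reads of the antisense RNA and of its partner cannot be told apart in these pairs. Whether the transcripts of each pair moved together was therefore not tested. ASB16 had 11.1, 6.91 and 5.41 CPM, at 2.06 beside 1.31 (1.20 to 1.43) for ASB16-AS1. NUTM2B, one of the near-identical loci, had 2.30, 1.54 and 1.15 CPM, at 2.01 beside 1.02 (0.952 to 1.08) for NUTM2B-AS1. These 2 antisense RNAs did not pass 2-fold with their partners.

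SH3BP5, the gene of a mitochondrial docking protein for the kinase JNK, was the partner that lay lower. It had 5.51 CPM with miR-182-5p, 5.00 CPM with miR-183-5p and 11.2 CPM in NC. The ratio to NC was 0.494 (0.433 to 0.562) for miR-182-5p and 0.448 (0.392 to 0.510) for miR-183-5p. SH3BP5 and SH3BP5-AS1 overlap at their ends, share 1975 exonic bases in GENCODE 29, and moved in opposite directions in both microRNA libraries. Their sum was 36.4 CPM with miR-182-5p, 28.5 CPM with miR-183-5p and 24.9 CPM in NC.

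**Figure D4:**
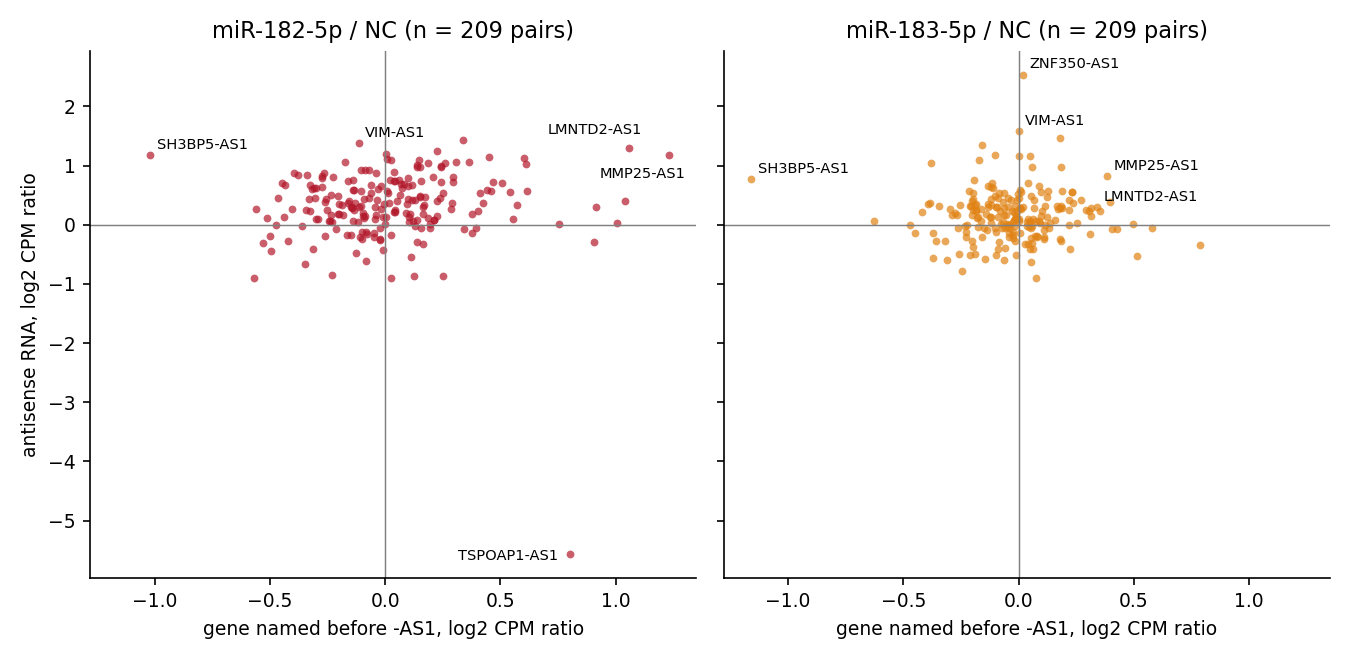
Log2 CPM ratio to NC of each antisense RNA (y axis) against that of the gene named before -AS1 (x axis), for the 209 pairs with at least 300 counts in both rows. The cloud lies mostly above 0 on the y axis and is centred near 0 on the x axis, more so for miR-182-5p, with TSPOAP1-AS1 far below the rest at a log2 ratio of -5.56 and SH3BP5-AS1 at the far left.

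The antisense RNAs fell into arrangements by the spans in the file. Of the 230 with a partner row, 82 overlap it at the starts, 54 at the ends, 54 are one within the other, 36 are divergent with starts within 5 kb, and 4 have another order. The median log2 ratio of miR-182-5p over NC was 0.41 for those overlapping at the starts, 0.36 at the ends, 0.39 within, and 0.22 for the divergent ones. For miR-183-5p over NC these medians were 0.15, 0.15, 0.11 and -0.035. The divergent antisense RNAs had the lowest median of these 4 arrangements in both comparisons with NC, with 23 of 36 above 1 for miR-182-5p, while the 4 in another order had 0.095 and -0.13. For miR-182-5p over miR-183-5p the divergent ones had the highest median, 0.29, beside 0.26 at the starts, 0.24 at the ends, 0.21 within and 0.26 for another order. Among these, STAM-AS1 had 2.43 CPM with miR-182-5p, 1.36 CPM with miR-183-5p and 1.33 CPM in NC.

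The ratio was also split by shared exons. The 37 antisense RNAs with no exonic bases shared with the other strand in GENCODE 29 had a median log2 ratio of 0.20 for miR-182-5p over NC, the 188 sharing under 50 percent had 0.41, and the 9 sharing 50 percent or more had -0.29. For miR-183-5p over NC these medians were 0.13, 0.15 and -0.14, so no steady order with the shared length was seen. The 9 spread widely, from -5.56 to 0.88 for miR-182-5p over NC and from -1.82 to 1.10 for miR-183-5p over NC. They hold the lowest antisense RNA of each comparison, TSPOAP1-AS1 and IDI2-AS1, and also PITPNA-AS1, the 1.10. Reads of the other strand are hardest to set apart in these 9. The 27 with a retained-intron transcript among their types had a median of 0.66, with 25 above 1, beside 0.31 for the other 207. GENCODE 29 gives the same span as the file for 108 of the 234, so shared exons are approximate.

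In protein-coding rows the ratio was also higher at low counts. For miR-182-5p over NC the median log2 ratio of protein-coding rows was 0.29 at 300 to 500 summed counts and -0.052 above 2000. For the antisense RNAs it was 0.49 at 300 to 500 counts, 0.32 above 500 and up to 1000, 0.27 above 1000 and up to 2000, and 0.37 above 2000. The other lncRNA rows had 0.47, 0.43, 0.47 and 0.40 in the same bins. The antisense RNAs above 2000 counts, 52 in number, thus kept a median above 0.3, while that of protein-coding rows was below 0. The ranges are unlike, since the other rows above 2000 have no upper limit and the antisense RNAs end at 18594 counts.

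**Figure D5:**
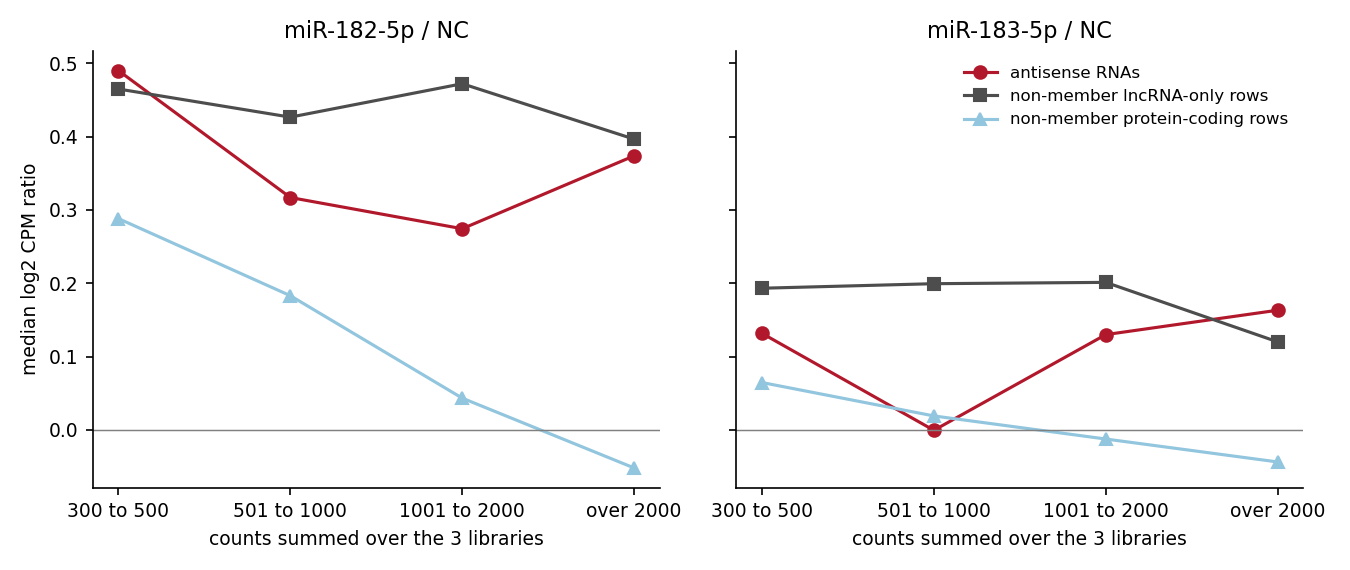
Median log2 CPM ratio to NC (y axis) of the antisense RNAs, the other lncRNA-only rows and the protein-coding rows, in 4 bins of counts summed over the 3 libraries (x axis). The highest bin has no upper limit, so its protein-coding rows reach counts above those of any antisense RNA. For miR-182-5p the antisense RNAs lie above the protein-coding rows in every bin, from 0.49 in the lowest to 0.37 in the highest; for miR-183-5p they are at -0.0007 in the second bin.

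Sites for the microRNA seeds were searched in the longest GENCODE 29 transcript of each antisense RNA, on its own strand. The 7-base site of miR-182-5p, TTGCCAA, was in 44 of 234 antisense RNAs (18.8%), beside 15.1% of 860 other lncRNA rows. The median log2 ratio of miR-182-5p over NC was 0.50 with the site and 0.35 without it. The site of miR-183-5p, GTGCCAT, was in 31 (13.2%, beside 13.7%), with a median log2 ratio of miR-183-5p over NC of 0.023 with the site and 0.14 without it. Transcripts with a miR-182-5p site therefore did not have the lower median ratio with miR-182-5p, whereas transcripts with a miR-183-5p site had a lower median ratio with miR-183-5p than those without it. In the other lncRNA rows these orders were the reverse, with medians of 0.41 with the site and 0.44 without it for miR-182-5p over NC, and 0.20 with the site and 0.17 without it for miR-183-5p over NC. The transcripts with a site were longer, with medians of 2645 bases for miR-182-5p and 3709 bases for miR-183-5p, beside 2337.5 bases over all 234.

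Among the antisense RNAs past 2-fold against NC with miR-182-5p, 6 hold a TTGCCAA site, and these are shown since they carry the pairing letters while lying on either side of NC. The first site of each transcript is printed with the bases around it, the match to the seed in capitals.
TSPOAP1-AS1: ccagttcttaTTGCCAAgccctctact
RNF213-AS1: caggcttcccTTGCCAAccactccaga
SH3BP5-AS1: ttaacagcctTTGCCAAcacatgcctg
KLF3-AS1: ttctggaatgTTGCCAAggatttttta
TNRC6C-AS1: tgccgtgatgTTGCCAAaatagcagca
PAXBP1-AS1: tgaatagcttTTGCCAAccgtggaatt
The site of TSPOAP1-AS1, the antisense RNA at 0.0212 of NC, is at bases 2143 to 2149 of a transcript of 2337 bases. RNF213-AS1 and SH3BP5-AS1, with the same 7 letters, were at 2.68 and 2.25 of NC. The 6 were taken from the antisense RNAs past 2-fold with miR-182-5p, of which 21 were higher and 1 lower. They therefore cannot show whether the letters go with a direction.

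Promoters of 300 bases, from 250 before to 50 after the start, were found in RefSeq for 170 of the 234 antisense RNAs, in 206 entries. They were richer in CpG than promoters at large, with a median of 24 CpG in 300 bases beside 14 over all 35116 entries, and a median GC content of 64.7% beside 58.7%. The letters GGGCGG, on either strand, were in 60.7% of the entries beside 45.0% of all, CCAAT in 32.5% beside 34.6%, and TATAAA in 6.80% beside 11.5%. The 86 antisense RNAs with at least the median of 23 CpG had a median log2 ratio of 0.33 for miR-182-5p over NC, and the other 84 had 0.43. Promoters are printed for RNF213-AS1 and STARD4-AS1, both past 2-fold, and for TSPOAP1-AS1, as examples of unlike CpG content. These were chosen after their values were seen and cannot show whether CpG content goes with a direction. GGGCGG or its reverse complement is in capitals, and the strand is that of the antisense RNA.
RNF213-AS1 promoter: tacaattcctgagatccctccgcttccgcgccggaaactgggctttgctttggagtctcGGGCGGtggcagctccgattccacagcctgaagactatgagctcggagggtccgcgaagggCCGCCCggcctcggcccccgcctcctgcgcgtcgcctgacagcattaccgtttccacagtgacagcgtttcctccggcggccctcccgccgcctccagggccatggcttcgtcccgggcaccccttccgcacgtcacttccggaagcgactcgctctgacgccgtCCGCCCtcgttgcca
STARD4-AS1 promoter: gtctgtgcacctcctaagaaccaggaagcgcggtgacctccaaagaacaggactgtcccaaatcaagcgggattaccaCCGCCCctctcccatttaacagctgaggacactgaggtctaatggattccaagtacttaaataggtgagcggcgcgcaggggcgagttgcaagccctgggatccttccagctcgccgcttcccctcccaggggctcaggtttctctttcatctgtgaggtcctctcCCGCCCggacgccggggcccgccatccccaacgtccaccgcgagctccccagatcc
TSPOAP1-AS1 promoter: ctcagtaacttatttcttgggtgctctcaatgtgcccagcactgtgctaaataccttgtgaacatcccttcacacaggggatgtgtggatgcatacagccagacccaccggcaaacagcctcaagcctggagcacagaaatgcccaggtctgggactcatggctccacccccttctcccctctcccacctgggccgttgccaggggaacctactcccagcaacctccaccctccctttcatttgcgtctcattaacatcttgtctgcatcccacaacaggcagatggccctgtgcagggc
They lie at chr17:80415119-80415418 on the minus strand, chr5:111511976-111512275 on the plus strand and chr17:58325200-58325499 on the plus strand in GRCh38.p14. The promoter of RNF213-AS1 holds 34 CpG and that of STARD4-AS1 holds 18, against 3 in the promoter shown for TSPOAP1-AS1, 1 of 2 entries for that gene.

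Genes of the machinery that handles such transcripts were described from 4 lists. Of 25 genes of nuclear RNA decay, the exosome, its adaptors and the cap-binding proteins, the counting interval of miR-182-5p over NC lay above 1 for 4 and below 1 for 14, with a median log2 ratio of -0.097. MTREX, the exosome helicase, had 89.3 CPM with miR-182-5p, 107 CPM with miR-183-5p and 115 CPM in NC. EXOSC5, an exosome core subunit, had 23.6, 30.4 and 31.8 CPM, and ZFC3H1, which links the exosome to polyadenylated nuclear RNA, went the other way with 107, 98.0 and 80.7 CPM. For miR-183-5p over NC the same list had 5 above 1, 12 below 1 and a median of -0.061. Over all rows the interval lay above 1 for 37.4% and below 1 for 37.1% for miR-182-5p over NC, and above 1 for 25.7% and below 1 for 35.8% for miR-183-5p over NC, and the counts of all 4 lists stand beside these shares. None of the 25 passed 2-fold.

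The 18 genes of cytoplasmic decay had a median log2 ratio of 0.019 for miR-182-5p over NC (6 above 1, 4 below) and 0.047 for miR-183-5p over NC (8 above, 2 below). The 23 genes of promoter-proximal termination, mostly Integrator and cleavage factors, had medians of -0.022 (7 above, 10 below) and -0.012 (4 above, 7 below). Of 20 genes of double-stranded RNA editing and sensing 19 had enough counts, with medians of 0.11 (10 above, 6 below) and 0.064 (7 above, 4 below). IFIH1, the sensor MDA5, had 65.7 CPM with miR-182-5p, 57.2 CPM with miR-183-5p and 51.8 CPM in NC, and ADAR, the main editing enzyme, had 272, 284 and 294 CPM. None of these genes passed 2-fold in either comparison with NC.

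For the biliary label of the cells, 9 marker genes were looked up, all of them above the minimum. KRT19 had 211 CPM with miR-182-5p, 215 CPM with miR-183-5p and 229 CPM in NC. KRT7 was low, with 6.17, 6.96 and 4.99 CPM in that order. The summed level of the 9 markers was 5515 CPM with miR-182-5p, 5938 CPM with miR-183-5p and 6599 CPM in NC. KRT8, with 2772, 3003 and 3423 CPM in that order, and KRT18, with 1623, 1868 and 2099 CPM, carry the lower sums. The other way, MUC1 had 18.6, 12.4 and 12.3 CPM and CFTR had 126, 106 and 89.0 CPM. For miR-182-5p over NC the counting interval lay above 1 for 5 of the 9 and below 1 for 4, with a median log2 ratio of 0.040, and for miR-183-5p over NC above 1 for 3 and below 1 for 5, with a median of -0.093. Of 5 hepatocyte markers 1, HNF4A, was above the minimum, of 6 fibroblast markers 1, COL1A1, and of 6 immune or endothelial markers 2, LYZ and CD68. LYZ was abundant, with 1514 CPM with miR-182-5p, 1450 CPM with miR-183-5p and 1596 CPM in NC. It was above KRT19 in each library, so these lists do not settle the cell type. The fibroblast list summed to 20.5 CPM with miR-182-5p, 12.5 CPM with miR-183-5p and 11.2 CPM in NC. Only 3 of its 6 genes have a row, and COL1A1 alone made up most of the sum, with 19.4, 12.3 and 10.4 CPM in that order. The share of counts from mitochondrially encoded genes was 16.7% with miR-182-5p, 16.1% with miR-183-5p and 13.5% in NC. The fibroblast sum and the mitochondrial share were thus highest in the library where the antisense RNAs were highest. With library totals that leave out mitochondrial genes, the median log2 ratio of miR-182-5p over NC was 0.42 over the antisense RNAs, beside 0.36 with the full totals. Over all rows it was then 0.057. Apart from this rescaling, the part of the fibroblast sum and of the mitochondrial share in the step of the antisense RNAs was not tested.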

How the data were processed

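Gene counts and FPKM values were deposited by the authors in 1 table with a column of each per library. The counts are whole numbers, and the FPKM values are relative to transcript length and library size by a formula that the file header does not give. Per the submitters' processing notes, reads were trimmed with cutadapt 1.9 and checked with FastQC, and the build is named as GRCm38, a mouse assembly, although the gene identifiers are human. No source used here names the aligner, the counter, the strand setting or the annotation release.

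CPM is the count scaled to the library total. Ratios carry exact 95% Clopper-Pearson intervals conditional on both counts, which cover counting error only. A ratio of 2 or more, or its inverse, was called; this rule and the interval were tested on simulated data. Named are up to 15 antisense RNAs per direction and comparison past 2-fold, the 6 most abundant, the 5 closest together and a role list; others were chosen after their values were seen, as were the overlapping genes and the printed promoters. Values of 2 antisense RNAs past 2-fold are not reported here, though counts include them. The members and lists were chosen with earlier results of these data known. Spans come from the file, exons from GENCODE 29, sequences from RefSeq (GRCh38.p14). Other settings were scaling (median-of-ratios, edgeR 4.0.16 TMM in R 4.3.3, totals without mitochondrial genes), log2 (FPKM + 1), other minimums and 1.5-fold. Python 3.11.15, pandas 2.3.3, numpy 2.4.6 and scipy 1.17.1 were used.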

Additional observations from a re-analysis of the deposited data

Results flagged for a closer look

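For 11 of the 234 antisense RNAs the libraries of miR-182-5p and miR-183-5p lay on opposite sides of NC, each beyond counting error. With 1 library per group the difference was not tested. The share of all rows under this rule was not counted, so the 11 are a description only. Over all rows the interval lay above 1 for 37.4% and below 1 for 37.1% for miR-182-5p over NC. For miR-183-5p over NC these shares were 25.7% and 35.8%. IDI2-AS1 had a ratio of miR-182-5p over miR-183-5p of 6.51, with miR-182-5p above NC and miR-183-5p below it. TNRC6C-AS1 had a ratio of 2.96 in the same direction. It shares exonic bases with TMC6 on its own strand, which had 183 CPM with miR-182-5p, 151 CPM with miR-183-5p and 134 CPM in NC. PITPNA-AS1 had a ratio of 0.334, with miR-182-5p below NC and miR-183-5p above it, on 84 counts with miR-182-5p, 275 with miR-183-5p and 123 in NC. Smaller ratios in the direction of IDI2-AS1 were those of CALML3-AS1 at 2.65, PITRM1-AS1 at 2.21, NDUFB2-AS1 at 2.11, NRSN2-AS1 at 1.77, KDM4A-AS1 at 1.57, ZNF337-AS1 at 1.52 and MAP3K14-AS1 at 1.29. ELFN1-AS1, at 0.766, lay in the direction of PITPNA-AS1.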

How the results depend on the processing

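Upward counts past 2-fold (21 for miR-182-5p over NC, 9 for miR-183-5p over NC, 9 between the microRNAs) became 0, 0 and 1 on the log2 (FPKM + 1) scale, 8, 2 and 1 at a minimum of 1000 counts (106 antisense RNAs), 52, 31 and 34 at 100 counts (386) and 74, 20 and 33 at 1.5-fold. Downward counts (1, 1 and 3) became 10, 15 and 11 at 100 counts and 8, 7 and 6 at 1.5-fold; for miR-183-5p over NC the count was 0 with FPKM, 0 at 1000 counts and 3 at 50 counts in each library (281), and between the microRNAs 1 at 1000 counts. The median log2 ratio was 0.17 for miR-182-5p over NC and 0.11 between the microRNAs with FPKM. Without antisense RNAs that share exonic bases with any gene (35 left; added after the data were seen) upward counts were 1, 1 and 0, downward counts 0, 0 and 1, the medians 0.24 for miR-182-5p over NC and 0.063 between the microRNAs, and pairs on the same side 45.5% for miR-182-5p over NC and 36.4% between the microRNAs. For miR-182-5p over NC, where it was 54.1%, that share also crossed 50% with median-of-ratios (46.9%) and TMM factors (47.8%). In all, 35 of 114 values of counts, medians and shares moved, and none of the medians changed sign. For named antisense RNAs, 279 values were compared, their log2 ratios and their differences from the partner. Of these, 144 moved with FPKM and 5 with TMM. The cause was not tested, except that a minimum changes how many are counted and that adding 1 to FPKM shrinks ratios of rare transcripts.

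Limits are the single library per group, unknown strand handling and depth: at about 300 summed counts the counting interval of a ratio is wide. No paired analysis was possible because each group has 1 library, and for the same reason no library was left out.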
